A study of Mus musculus with 2 samples.

Results

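The miR-200 family genes Mir200b, Mir200a, Mir429, Mir200c and Mir141, together with Mir203 and Mir205, are microRNAs (miRNAs) known from epithelial tissue. They were picked by gene name in GENCODE M21 and make up 7 of the 2202 miRNA genes in the deposited count tables. The tables come from microRNA sequencing of the adrenal gland of female adult mice of the strain 5xFAD/CAST, aged 8 to 10 months. 5xFAD is a transgenic Alzheimer's disease line whose transgenes are driven by the neuronally active Thy1 promoter, and CAST is a castaneus strain that was inbred from wild-caught animals. The labels do not say whether each animal carried the transgenes, and the tables hold no other genotype, treatment or age. The 2 libraries, biological replicates 1 and 2 of this 1 group, have separate biosamples but the same donor identifier. The spread between them may therefore be partly technical, and no contrast between conditions exists.

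A mature miRNA is cut from a hairpin precursor and guides repression of mRNAs that pair with its seed, the bases near its 5′ end. In epithelia the miR-200 family represses Zeb1 and Zeb2, transcription factors that silence E-cadherin, and these factors in turn repress the miR-200 genes. miR-203 is best known from the skin, where it limits the proliferative potential of keratinocyte progenitors by repressing p63, and miR-205 is abundant in stratified epithelia. The adrenal cortex derives from mesoderm and the medulla from neural crest. The gland consists mostly of steroid-producing and chromaffin cells, with vessels and a connective tissue capsule, and has no lining epithelium.

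The mature sequences below are shown because they define the family's seed groups. They come from RefSeq (GRCm38.p6), which holds hairpins for all 7 genes at the coordinates of the count tables' annotation, and capitals mark the seed, bases 2 to 8 from the 5′ end. The arms printed are those known as the main products, the 3p arm for the miR-200 genes and Mir203 and the 5p arm for Mir205.
miR-200b-3p: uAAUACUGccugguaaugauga
miR-200c-3p: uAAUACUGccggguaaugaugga
miR-429-3p: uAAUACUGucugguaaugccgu
miR-200a-3p: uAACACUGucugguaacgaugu
miR-141-3p: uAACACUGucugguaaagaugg
miR-203-3p: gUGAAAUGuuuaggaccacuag
miR-205-5p: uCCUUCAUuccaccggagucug

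miR-200b, miR-200c and miR-429 thus share one seed, and miR-200a and miR-141 another that differs from it by U4C alone, counted from the 5′ end. Each genomic cluster holds both seeds. Within a seed group the sequences stay close, since miR-200b-3p and miR-200c-3p differ by U11G and A22G over 22 compared bases and miR-200a-3p and miR-141-3p by C17A and U22G. No other mature miRNA among the 1738 in the RefSeq table carries the seed of any of these 7 arms. No member shares a stretch of 20 bases with another miRNA gene of the tables, the longest being the 17 bases common to Mir200a and Mir141, and the rest of the genome was not searched.

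In mm10, Mir200b (chr4:156055681-156055750), Mir200a (chr4:156054896-156054985) and Mir429 (chr4:156053905-156053987) lie on the minus strand within 1846 bases. All 3 are in an intron of Ttll10, a tubulin tyrosine ligase-like gene, and of the noncoding gene Gm13648 except for Mir429, which is in an exon of Gm13648. Mir200c (chr6:124718322-124718390) and Mir141 (chr6:124717914-124717985) lie on the minus strand within 477 bases, both in an intron of the noncoding gene Gm15884, with Mir141 also partly in an exon of Gm29008. Mir203 (chr12:112130880-112130955) is intergenic on the plus strand, 3320 bases beyond Aspg and 15252 bases before Kif26a. Mir205 (chr1:193507463-193507530) is in an exon of the noncoding gene 4631405K08Rik, which RefSeq names Mir205hg, on the minus strand.

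Levels were taken from the count column that holds reads of 1 strand, here called the strand column, which for all 7 genes holds most or all of the reads. That column had 3635851 miRNA-gene reads in replicate 1 and 6924829 in replicate 2, and counts were scaled to 1000000 of them (CPM). A small RNA read covers a whole mature miRNA, so CPM compares molecules sequenced per gene. Values per 100 bases of the annotated gene are given as well, and ligation bias between miRNAs affects either scale. A count of 0, taken as up to 3 counts, would allow 0.825 CPM in replicate 1 and 0.433 CPM in replicate 2. Intervals are exact Clopper-Pearson 95% intervals, which like these limits cover counting error only.

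Mir203 was the one abundant member. It had 2881 reads in replicate 1, or 792 CPM (interval 764 to 822), and 6214 reads in replicate 2, or 897 CPM (interval 875 to 920). Its mean was 845 ± 74.2 CPM (SD, n = 2), rank 85 of all genes, and 76.1% of the detected genes were lower. Both libraries were thus far above every other member. Per 100 bases of the gene Mir203 stood at 1112 ± 97.7 CPM, rank 80. Multimapping reads were assigned to no gene, so genes that share their mature sequence with another locus may be counted too low. These ranks and the share of genes below Mir203 hold only for reads counted in this way.

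Mir200c was the most abundant of the miR-200 genes. It had 106 reads in replicate 1, or 29.2 CPM (interval 23.9 to 35.3), and 169 in replicate 2, or 24.4 CPM (interval 20.9 to 28.4), with a mean of 26.8 ± 3.36 CPM (SD, n = 2) and rank 243. The other gene of its cluster, Mir141, had 18 reads and 4.95 CPM in replicate 1 and 21 reads and 3.03 CPM in replicate 2. Mir200c exceeded Mir141 in both libraries, taking 85.5% of the cluster's reads in replicate 1 (interval 78.0 to 91.2%) and 88.9% in replicate 2 (interval 83.6 to 93.0%).

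In the chromosome 4 cluster, Mir200b had 18 reads and 4.95 CPM in replicate 1 and 50 reads and 7.22 CPM in replicate 2. Mir429 had 36 reads and 9.90 CPM in replicate 1 and 14 reads and 2.02 CPM in replicate 2. Mir200a had 4 reads in each library, 1.10 CPM in replicate 1 (interval 0.300 to 2.82) and 0.578 CPM in replicate 2 (interval 0.157 to 1.48), close to what a count of 0 allows. Mir205, the stratified epithelium miRNA, was as low, with 3 reads and 0.825 CPM in replicate 1 (interval 0.170 to 2.41) and 6 reads and 0.866 CPM in replicate 2 (interval 0.318 to 1.89).

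**Figure D1:**
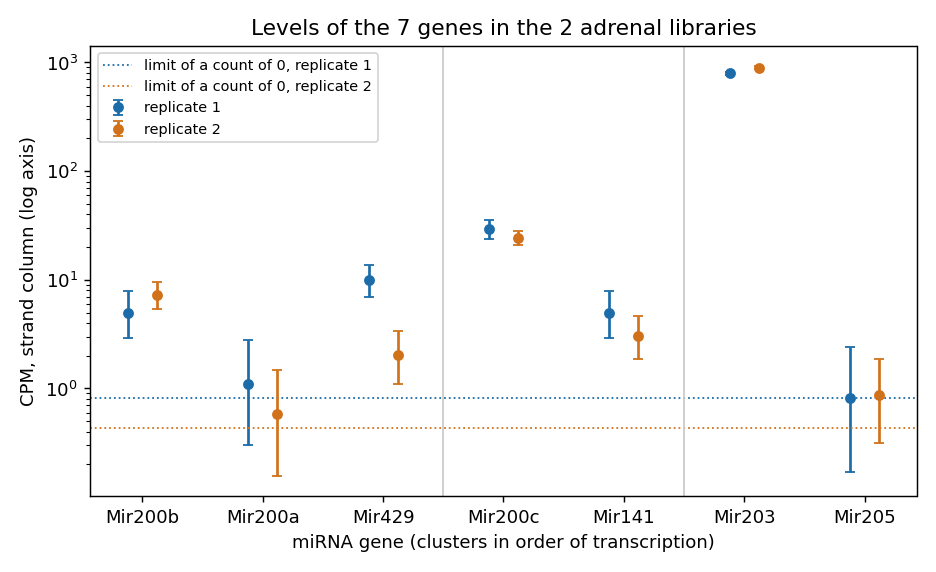
CPM of each gene (vertical log axis) in replicate 1 (blue) and replicate 2 (orange), with exact 95% counting intervals as bars and, as dotted lines, the limits of 0.825 and 0.433 CPM that a count of 0 allows. Mir203 stands at 792 and 897 CPM, Mir200c between 24.4 and 29.2 CPM, and Mir200a and Mir205 lie near the dotted lines.

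A gene counted as detected with 10 reads or more in replicate 1 and also in replicate 2. So defined, 5 of the 7 members were detected, all but Mir200a and Mir205, beside 356 of all 2202 genes (16.2%). At a minimum of 20 reads only Mir200c and Mir203 remained. In order of mean CPM the genes ran Mir203, Mir200c, Mir200b, Mir429, Mir141, Mir205 and Mir200a, and the order per 100 bases was the same. Neighbours in this order were compared by their CPM values in the libraries. Mir203 did not overlap Mir200c, Mir200c did not overlap Mir200b, and Mir141 did not overlap Mir205. The counting intervals of Mir141 and Mir205 did overlap slightly in replicate 2, at 1.88 to 4.64 and 0.318 to 1.89 CPM. By CPM, Mir200b and Mir429, Mir429 and Mir141, and Mir205 and Mir200a overlapped. Mir200b and Mir141, which are not neighbours, tied at 4.95 CPM in replicate 1. The order within the pairs that overlapped by CPM or tied is not fixed by these libraries. The median over the 7 members was 5.96 CPM. The median over all 2202 genes was 0 CPM, since most had no counted read, and that over the 356 detected genes was 94.6 CPM. These medians leave out multimapping reads.

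**Figure D2:**
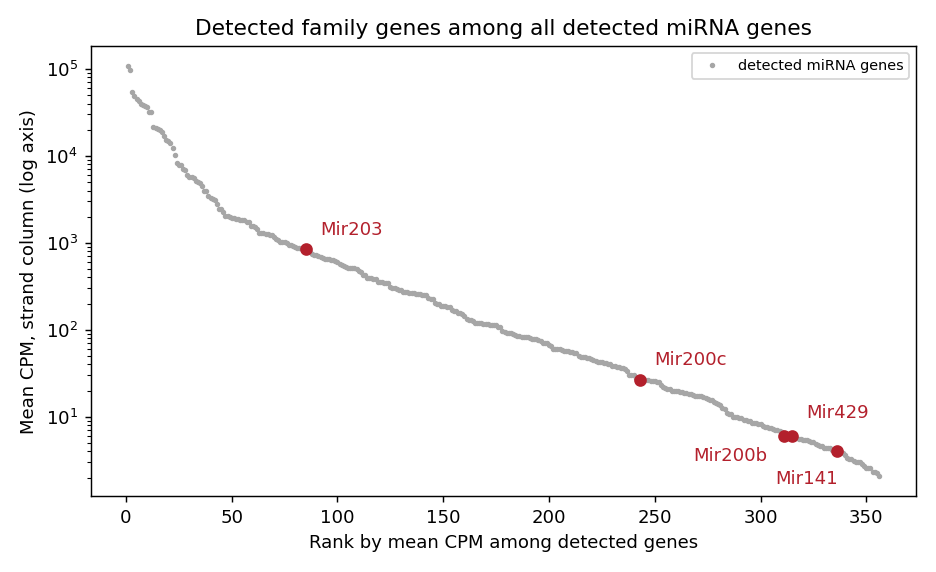
Mean CPM of the 356 detected miRNA genes (vertical log axis) against their rank, with the 5 detected members in red. Mir203 at 845 CPM lies in the upper part of the curve, Mir200c at 26.8 CPM below its middle, and Mir200b, Mir429 and Mir141 near its lower end.

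The comparison of Mir203 with the miR-200 clusters asked whether these epithelial miRNAs stood at like levels in a gland without a lining epithelium. The levels were far apart. The chromosome 4 cluster summed to 58 reads or 16.0 CPM in replicate 1 and 68 reads or 9.82 CPM in replicate 2, a mean of 12.9 ± 4.34 CPM (SD, n = 2). The chromosome 6 cluster summed to 124 reads or 34.1 CPM and 190 reads or 27.4 CPM, a mean of 30.8 ± 4.71 CPM. All 5 miR-200 genes together reached 50.1 CPM in replicate 1 and 37.3 CPM in replicate 2, far below Mir203 alone in either library.

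Mir203 had 15.8 times the reads of the 5 miR-200 genes together in replicate 1 (exact interval 13.6 to 18.5) and 24.1 times in replicate 2 (exact interval 21.3 to 27.4), a log2 ratio of 4.28 ± 0.43 (SD, n = 2). Against the chromosome 4 cluster the ratio was 49.7 (interval 38.3 to 65.6) in replicate 1 and 91.4 (interval 72.0 to 118) in replicate 2, with a mean log2 ratio of 6.06 ± 0.62. Against the chromosome 6 cluster it was 23.2 (interval 19.4 to 28.0) and 32.7 (interval 28.3 to 38.0), with a mean log2 ratio of 4.78 ± 0.35. Each ratio was larger in replicate 2, by less than 1 on the log2 scale. No test was made across genes, and in whole tissue fewer cells of a type and less RNA per cell cannot be told apart.

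The clusters also differed from each other in counted reads. The chromosome 6 cluster had 2.14 times the reads of the chromosome 4 cluster in replicate 1 (exact interval 1.55 to 2.97) and 2.79 times in replicate 2 (exact interval 2.11 to 3.74), a log2 ratio of 1.28 ± 0.27 (SD, n = 2). Neither interval reached a ratio of 1, but they cover counting error only and not ligation bias between miRNAs. The lead came from Mir200c, since Mir141 alone had 18 and 21 reads, fewer than the 58 and 68 of the chromosome 4 cluster. Regrouped by seed, the hairpins of Mir200b, Mir200c and Mir429 summed to 44.0 CPM in replicate 1 and 33.6 CPM in replicate 2, and those of Mir200a and Mir141 to 6.05 and 3.61 CPM. The hairpins with the AAUACUG seed on their 3p arm therefore had 7.27 times (exact interval 4.64 to 11.9) and 9.32 times (exact interval 6.16 to 14.7) the reads of those with AACACUG. This compares 3 genes with 2, and Mir200c alone gave 106 of the 160 AAUACUG reads in replicate 1 and 169 of the 233 in replicate 2. Counts are per hairpin, so which arm the reads came from is not known.

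The make-up of the chromosome 4 cluster was not the same in both libraries, whereas that of the chromosome 6 cluster was close. Mir429 took 62.1% of the chromosome 4 cluster's reads in replicate 1 (interval 48.4 to 74.5%) and 20.6% in replicate 2 (interval 11.7 to 32.1%). Mir200b took 31.0% (interval 19.5 to 44.5%) and 73.5% (interval 61.4 to 83.5%). Neither pair of intervals overlaps, so which gene led the cluster depended on the library. The cluster's reads number only 58 and 68, and Mir200a held 4 of them in each.

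**Figure D3:**
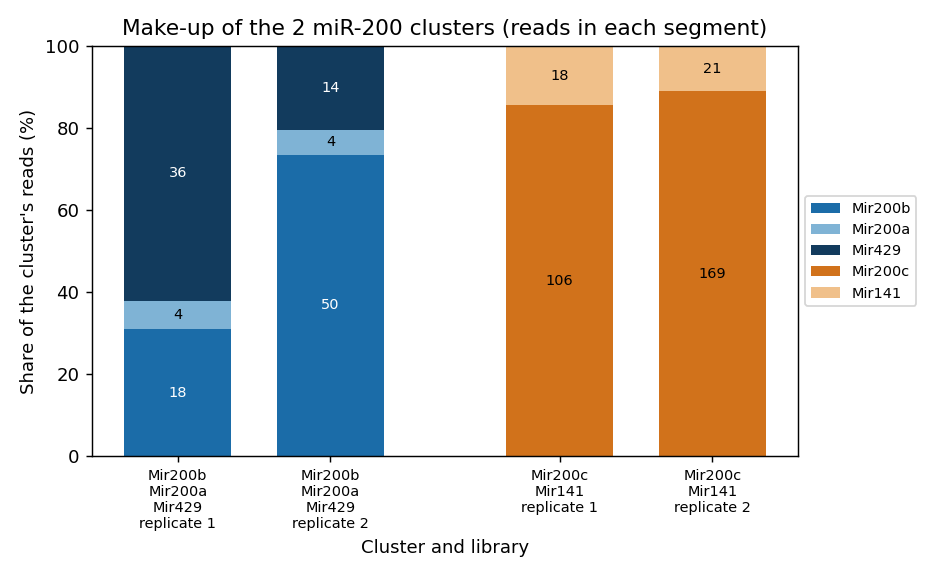
Share of each cluster's strand-column reads (%) taken by each gene, in replicates 1 and 2, with the number of reads written in each segment. Mir429 leads the chromosome 4 cluster in replicate 1 with 36 of 58 reads and Mir200b in replicate 2 with 50 of 68, while Mir200c holds over 85% of the chromosome 6 cluster in both.

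The libraries were then compared over the whole table, to see which members differed by more than counting error. Of the 7 members, 5 had at least 10 reads in both libraries together and were tested, and Fisher's exact test, two-sided and adjusted by Benjamini-Hochberg over 455 genes, called 2 of the 5. This is to be read against 239 of 455 genes called in all (52.5%), 16.9% higher and 35.6% lower in replicate 2. This lean depended on scaling, as 77 genes were called higher and 162 lower with plain totals, but 118 higher and 121 lower with DESeq2 size factors. Mir429, a miRNA of the AAUACUG seed group, was lower in replicate 2 with a log2 ratio of -2.26 (adjusted p = 2.74e-07, Fisher's exact test), a fold of 0.204 (interval 0.102 to 0.388). Mir203 was higher in replicate 2 with a log2 ratio of 0.18 (adjusted p = 9.19e-08, Fisher's exact test), a fold of 1.13 (interval 1.08 to 1.18). With DESeq2 size factors the log2 ratio of Mir203 was 0.35, so this interval holds for plain totals only.

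Mir200b, Mir200c and Mir141 were not called, with log2 ratios of 0.52, -0.26 and -0.71 and adjusted p of 0.293, 0.247 and 0.206 by Fisher's exact test. Their intervals of the fold were 0.836 to 2.66, 0.653 to 1.08 and 0.311 to 1.22, which still allow differences of that size. The median log2 ratio over the 5 tested members was -0.26 and their median absolute log2 ratio 0.52, beside -0.18 and 0.47 over the 455 genes. Fisher's test compares these libraries and allows for counting error only. With the spread between libraries included, through the common dispersion in edgeR's exact test, none of the 5 members and 5 of 455 genes (1.1%) were called, and 26 genes (5.71%) had an unadjusted p under 0.05. That dispersion was estimated from the same 2 libraries that the test compares, so few calls follow from its construction, and they do not show that the libraries were alike. By that test Mir429 had an unadjusted p of 0.00663 and an adjusted p of 0.251, the lowest among the members, and Mir203 an adjusted p of 1.

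**Figure D4:**
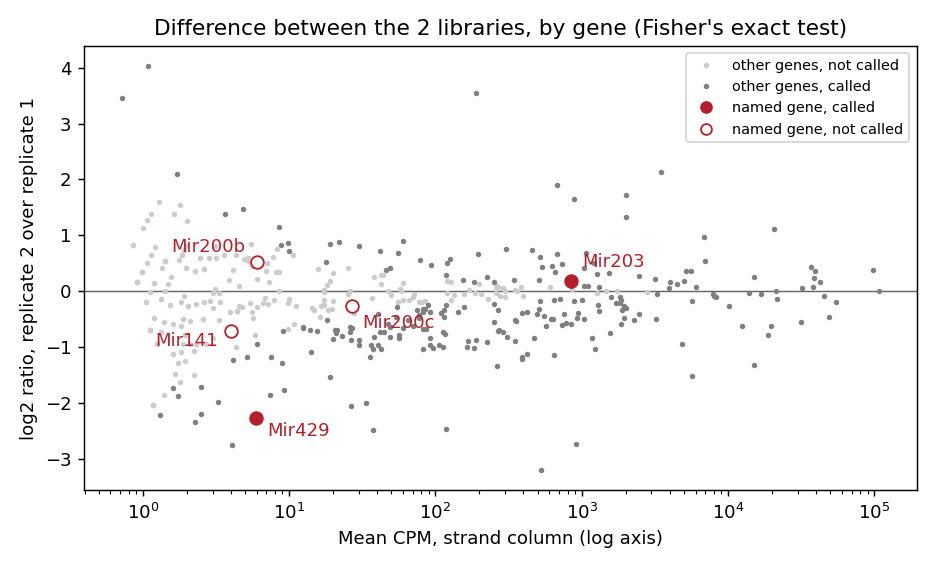
Log2 ratio of replicate 2 over replicate 1 (vertical axis) against mean CPM (log axis) for the 455 tested genes, with the 5 tested members in red, filled where Fisher's exact test called them. Mir429 lies among the lower points at -2.26, and Mir203 lies near 0 at 0.18 although it is called.

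Mir203 was set apart among the members by its number of reads on the opposite strand. The column for that strand held 172 reads over Mir203 in replicate 1, or 5.63% of the reads on both strands (interval 4.84 to 6.51%), and 213 in replicate 2, or 3.31% (interval 2.89 to 3.78%). The other members had none in either library except for 3 reads over Mir200a in replicate 1, where the strand column had 4. For Mir200c, the best covered of them, 0 of 106 and 0 of 169 reads allow shares of up to 3.42% and 2.16% (interval bounds). For Mir200b, Mir429, Mir141 and Mir205 the upper bounds were 7.11% or more in each library, so a share like that of Mir203 is not excluded there. By share, Mir200a was higher than Mir203 in replicate 1, at 42.9% (interval 9.90 to 81.6%). Per 1000000 strand-column reads, the opposite strand of Mir203 gave 47.3 in replicate 1 and 30.8 in replicate 2, so that it outnumbered Mir200c, at 29.2 and 24.4 CPM, in both libraries.

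GENCODE M21 annotates no miRNA gene opposite Mir203. Among the 327 detected genes of the tables without an annotated opposite-strand miRNA gene, 302 had no opposite-strand read in either library and 25 had at least 1. Mir203 led these 25 with 385 reads over both libraries, followed by Mir34b with 16, Mirlet7b, among the most abundant genes of the tables, with 14, and Mir708 with 9. Mir708, a gene of nearly the same level as Mir203, thus had 0.0987% of its reads on the opposite strand, against 4.06% for Mir203 over both libraries. RefSeq lists a miRNA gene there, Gm51289 with the synonym Mir203b, on the minus strand of chromosome 12. Its 5p product, at chr12:112130927-112130946, faces the 3p arm of Mir203 at chr12:112130927-112130948, and both are printed with seeds in capitals.
miR-203-3p: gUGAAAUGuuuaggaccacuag
miR-203b-5p: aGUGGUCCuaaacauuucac

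All 20 bases of miR-203b-5p are complementary to bases 1 to 20 of miR-203-3p, as follows from their positions on opposite strands. The other arms, miR-203b-3p and miR-203-5p, are likewise complementary over the 20 bases where they overlap. The seed of miR-203b-5p differs from that of every member. The tables give reads per gene and strand, so the positions of the opposite-strand reads within the locus are not known. With reads of both strand columns added up and divided by their joint totals, Mir203 stood at 787 ± 62.9 CPM (SD, n = 2). In the both-strand column, whose totals of 3159960 and 6119201 reads are smaller because it leaves out reads over overlapping genes, it stood at 1008 ± 59.5 CPM.

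**Figure D5:**
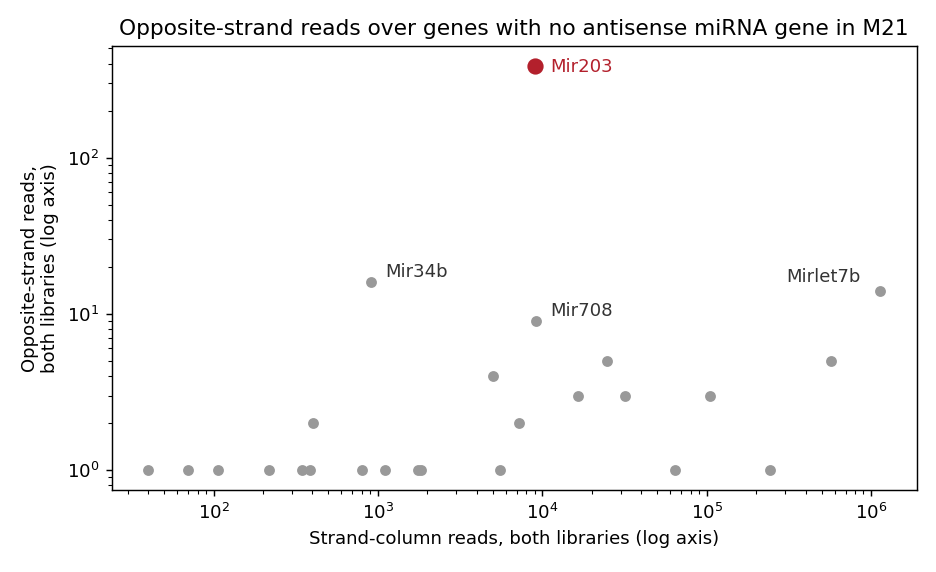
Opposite-strand reads against strand-column reads, both libraries summed and both axes logarithmic, for the 25 detected genes with at least 1 opposite-strand read and no antisense miRNA gene in GENCODE M21. Mir203 stands at 385 opposite-strand reads, and no other point exceeds 16.

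The members' levels were set beside miRNAs of other cell types, from lists of general knowledge. Other miRNAs linked to epithelial cells were all detected, 7 of 7, led by Mir375, which is also an endocrine miRNA, at 45225 ± 1738 CPM (SD, n = 2) and by Mir31 at 2007 ± 1520 CPM. Of these 7, 2 were higher and 5 lower in replicate 2 by Fisher's exact test, beside 52.5% of all tested genes called, and 3 were higher and 4 lower with DESeq2 size factors. The mesenchymal and smooth muscle list had 5 of 6 genes detected and summed to 24824 and 22077 CPM. It was led by Mir143 at 21677 ± 1479 CPM and Mir145a at 1030 ± 243 CPM, with Mir199a-1 at 0. Reads shared by Mir199a-1 and Mir199a-2 would be multimapping and counted for neither, so this 0 cannot show absence. The endothelial Mir126a reached 49108 ± 10714 CPM. Leukocyte miRNAs, 4 of 4 detected, summed to 1147 and 854 CPM, led by Mir150 and Mir155. Red cell miRNAs (2 of 3 listed names matched) summed to 427 and 175 CPM, from Mir451a and Mir144. The unmatched name was Mir486a, and Mir486, at 18.4 CPM in replicate 1 and 15.6 CPM in replicate 2, was not included.

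As counted, without multimapping reads, markers of kidney tubule and intestine stood at levels like those of the miR-200 genes. Reads shared by Mir194-1 and Mir194-2 would be counted for neither, so the sum of these markers may be too low. The kidney tubule and intestine list, with 2 of 4 genes detected and none at 0, summed to 57.2 CPM in replicate 1 and 34.1 CPM in replicate 2. Its most abundant members were Mir192 at 29.2 and 16.8 CPM and Mir194-2 at 26.4 and 15.7 CPM. Both were lower in replicate 2, with log2 ratios of -0.80 and -0.75 (adjusted p = 0.000132 and 0.000714, Fisher's exact test). Neither was called by edgeR's exact test. The other listed genes were not detected, Mir215 at 1.38 and 1.30 CPM and Mir194-1 at 0.275 and 0.289 CPM. Mir215 had a log2 ratio of -0.14 and was not called, and Mir194-1 had too few reads to be tested. The miR-200 genes summed to 50.1 and 37.3 CPM in the same libraries, a sum that was not tested. Among them Mir429 alone was called lower in replicate 2, and Mir200b, which was not called, had a log2 ratio of 0.52. These calls stand beside 35.6% of all tested genes called lower in replicate 2 with plain totals. The part of adjoining kidney tissue in these levels was not tested. The liver miRNA Mir122 stood at 78.1 and 108 CPM, while the pancreas list summed to 1.10 and 1.30 CPM. The neuron list summed to 0.550 and 0.578 CPM with 4 of 6 genes at 0. The striated muscle list summed to 2.75 and 0.866 CPM with 4 of 5 genes at 0. Both of these lists hold numbered copies, such as Mir9-1 and Mir1a-1, and reads shared by copies would be multimapping and counted for no gene. Shared stretches were searched for the members only, so these low sums cannot show that such miRNAs were absent. The endocrine list had 4 of 4 genes detected and summed to 50709 and 48363 CPM, from Mir375 and Mir7b at 3967 ± 107 CPM. No list held a miRNA particular to the adrenal cortex, so the labelled tissue was checked only by its endocrine miRNAs.

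The genes nearest in level, by the summed absolute difference in log2 CPM over the 2 libraries among 351 detected genes, were named for orientation. For Mir203 they were Mir671 at 844 ± 43.3 CPM (distance 0.07), Mir540 at 880 ± 76.4 CPM (0.12) and Mir708 at 858 ± 18.0 CPM (0.14). For Mir200c they were Mir1983 at 26.1 ± 3.18 CPM (0.08), Mir29b-2 at 27.7 ± 5.22 CPM (0.13) and Mir1941 at 27.9 ± 5.31 CPM (0.13).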

How the data were processed

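Raw counts per gene were deposited by the authors as 1 table for each library, with 3 unnamed columns. The notes beside the tables name mm10 and GENCODE M21. For the aligner, the counter and the trimming, the method is not given in the sources used here. From the values, the columns were read as both strands, 1 strand and the opposite strand. Their sums fit this exactly once ambiguous reads are added. Libraries held 7774567 and 15391360 reads, of which 31.6% and 33.6% were multimapping and assigned to no gene, 16.1% and 16.5% were unmapped and 5.55% and 4.99% lay on no miRNA gene. These entries were kept out of the CPM totals.

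Genes were tested with at least 10 reads in both libraries together, by Fisher's exact test with Benjamini-Hochberg adjustment at 0.05. Alternatives used TMM (edgeR 4.0.16) or DESeq2 1.42.0 size factors with an exact binomial test, edgeR's exact test with the common dispersion (biological coefficient of variation 31.4% over 356 genes), other columns, totals, minimums and offsets, and each library alone. Log2 ratios used an offset of 0.5 counts. Procedures were tested on simulated counts that held counting error only, so this check does not cover the spread between the libraries. Named genes were the members, the 3 nearest in level to Mir203 and to the leading miR-200 gene, and up to 2 leading genes of each list; Mir34b, Mirlet7b and the opposite-strand values of Mir708 were chosen after their values were seen. Members and lists were chosen with earlier results of these data known. R 4.3.3, Python 3.11.15 and scipy 1.17.1 were used.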

Additional observations from a re-analysis of the deposited data

Results flagged for a closer look

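Opposite-strand reads over Mir203 numbered 172 in replicate 1 and 213 in replicate 2. That column is kept apart from the levels of the 7 genes, and both counts are far above the 3 counts that a count of 0 allows. Their share of the locus was higher in replicate 1, at 5.63% against 3.31%, and the exact intervals of the shares do not overlap. Whether the reads come from the antisense miRNA gene that RefSeq lists there was not tested, since the tables hold no read positions.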

How the results depend on the processing

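Each log2 ratio among Mir203 and the clusters kept its sign and moved by less than 1 SD under each column, offset and length scaling tried. Leaving out 1 of 2 libraries always moves a mean by less than its SD, so those values below are a range only. The summed level of the 7 members, 889 CPM, was 1060 CPM in the both-strand column, 408 CPM with all reads as the total and 1174 CPM per 100 bases of the gene. With either library left out it lay between 843 and 935 CPM, Mir203 over the 5 miR-200 genes between 3.98 and 4.59 (log2), Mir203 over the chromosome 4 cluster between 5.62 and 6.50, Mir203 over the chromosome 6 cluster between 4.53 and 5.03, and the chromosome 6 over the chromosome 4 cluster between 1.09 and 1.48. A minimum of 20 reads left 2 members detected in place of 5, by construction. With edgeR's exact test, whose dispersion comes from the same libraries, 0 members were called in place of 2, and 5 genes in place of 239. Scaling changed no member's direction or call, though 32.2% of all calls were higher in replicate 2 with plain totals, 47.3% with TMM and 49.4% with DESeq2 size factors, and the median log2 ratio of all genes moved from -0.18 to -0.03 and -0.01. The size of the log2 ratio of Mir203 did change, from 0.18 to 0.32 with TMM and 0.35 with DESeq2 size factors. In the both-strand column it was 0.12. Depth limits Mir200a and Mir205, whose levels cannot be told from the limit of a count of 0. No paired analysis was possible because there is only 1 group.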
